A study of Bos taurus with 21 samples.

Results

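The genes described here are the 200 whose level varied most between libraries of the same feeding group. The choice was made among 11213 hypothalamic genes with a mean of at least 10 CPM (a count scaled to the size of its library). In all 22984 genes were listed, and the 200 were chosen by measured values. The level of each gene was written as log2 CPM, the mean of its feeding group was subtracted, and genes were ranked by the standard deviation (SD) of these residuals over 21 libraries. Genes whose 2 restricted groups did not overlap, and 10 listed identifiers, had been set aside beforehand, and 3 of the 91 candidates set aside would otherwise have ranked among the 200. The spread of the members is therefore a description of the choice and carries no test.

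A heifer is a young cow that has not yet calved. Controls (7 libraries) were given a 1.2 Mn diet and ovulated. The restricted heifers were fed at 0.4 Mn, a unit the labels tie to estimated energy requirement, and were divided by their response, not by assignment, into restricted anovulatory animals that stopped ovulating (RA, 7 libraries) and restricted ovulatory animals that went on ovulating (RO, 7 libraries). Hypothalamus was collected from all groups at slaughter after 18 days of the diets, and polyA-selected mRNA was sequenced. The labels give no age, and they do not say that replicates came from separate animals, so p-values measure the spread between these libraries.

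The hypothalamus links the brain with the pituitary, and is assembled from many small nuclei and fibre tracts. Each nucleus has its own neuropeptides, receptors and transcription factors, and these govern feeding, water balance, body temperature, stress and reproduction. It borders the third ventricle, the thalamus, the optic chiasm and the pituitary stalk, each of which has a gene set of its own. Many of these genes are used by few cells of the region. In bulk tissue, fewer cells of a type and less RNA per cell cannot be told apart.

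The deposited tables hold Ensembl-style identifiers without gene names, and 0 of 22984 identifiers matched the RefSeq gene table. Members are therefore given by identifier, without function, position or sequence, and the labelled tissue was not checked against marker genes. Total counts per library ran from 3379050 to 4476586 (median 3932234). Control replicate 5 stood apart from the other libraries, with a mean correlation of 0.927 with the other controls, against 0.956 to 0.973 for the other 20 libraries with their own groups. Results that rest on it are given with and without it. The file names carry a date-like token with 4 values, called runs A to D here. The labels do not say what this token stands for. Run A held Control replicate 5, RA replicate 2 and RO replicate 7. Run B held Control replicate 1 and RO replicates 1 to 6. Run C held the other 5 controls with RA replicates 1 and 3, and run D held RA replicates 4 to 7. RA and RO therefore met only in run A, with 1 library each.

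The residual SD of the members ran from 0.665 to 2.98 on the log2 scale, with a median of 0.793, against a median of 0.197 over all 11213 candidates. For 48 members it was at least 1. The last 2 members by rank, ENSBTAG00000004361 and ENSBTAG00000008182, had SDs of 0.665 and 0.6649. The next 2 genes in rank, ENSBTAG00000000920 and ENSBTAG00000017198, had 0.6646 and 0.6638, so the list ends within a continuous range. Members were expressed below the typical candidate, with a median level of 20.7 CPM against 56.9 CPM, and the highest member averaged 171 CPM. Counting error alone, computed from the Poisson distribution at each member's group means, gave SDs of 0.0533 to 0.273. All 200 members had an observed SD more than 2 times their counting SD. With counting SDs of at most 0.273 this follows from the cut at 0.665, and it carries no test. A group mean raised by a high library also understates the counting error of the low libraries. Only 6 members had a library with a count of 0, and 20 had a library with at most 3 counts, a floor that corresponds to 0.652 to 0.901 CPM depending on the library.

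The spread was shared by the 3 feeding groups. Among controls the median member had an SD of 0.879, where the median candidate had 0.207. The corresponding values were 0.884 and 0.183 among RA libraries, and 0.768 and 0.203 among RO libraries. Controls had the largest SD of the 3 groups for 85 members, RA for 73 and RO for 42. Without Control replicate 5 these counts were 62, 85 and 53. Since all groups entered the choice, candidates were also ranked in each group alone and read in the libraries that this ranking had not used. Of the 200 genes with the largest SD among RA libraries, 86 (43% of each list) were also among the 200 with the largest SD among RO libraries, where 200 genes make up 1.8% of the candidates. The top lists of controls and RA shared 90 genes (45%), and those of controls and RO shared 88 (44%). In all 3 lists 55 genes recurred. The 200 genes ranked in RA had a median SD of 0.606 among RO libraries, where the median candidate had 0.203, and 197 of them lay above that median. The rankings share the set of candidates and the scaling of the libraries, and no chance value was computed for these overlaps.

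A small number of libraries supplied most of the extreme values. Control replicate 5 deviated most from its group mean for 42 members, and in 36 of these it was high. RO replicate 1 was the most extreme library for 34 members, low in 33 of them, and Control replicate 4 for 28, low in 27. RA replicate 2 was the most extreme for 23, high in 22. Together these 4 libraries accounted for 127 of the 200 members, while RA replicates 1 and 3 were the most extreme for none. Over all members the largest deviation was downward in 122 and upward in 78.

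**Figure D1:**
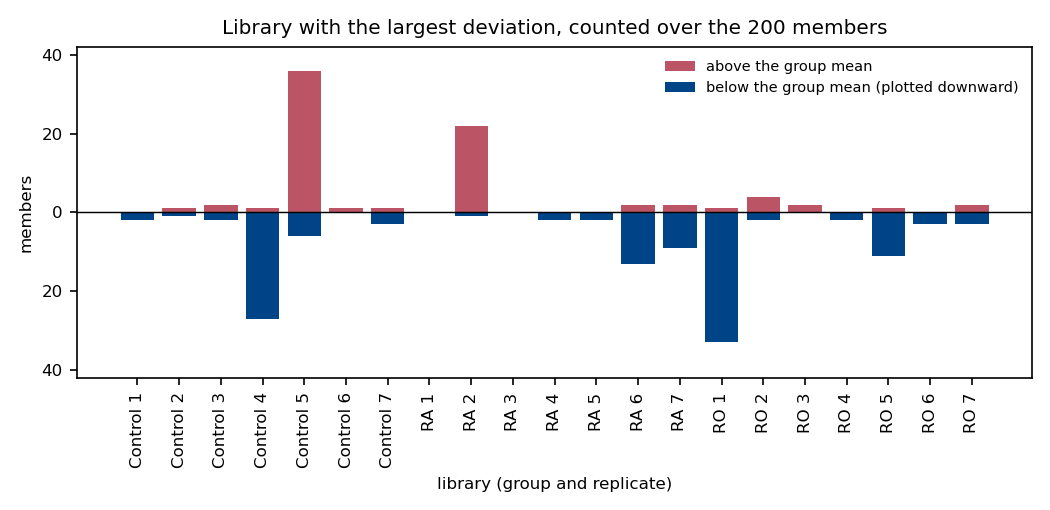
Number of the 200 members (vertical axis) for which each library (horizontal axis) deviates most from its group mean. Bars above 0 count deviations upward and bars below 0 deviations downward. Control replicate 5 (36 upward) and RA replicate 2 (22 upward) have the tallest upward bars, and RO replicate 1 (33) and Control replicate 4 (27) the longest downward bars.

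Control replicate 5 held 11.4% of the members' summed squared residuals and 13% of those of all candidates. RO replicate 1 held 8.99% against 7.98%, Control replicate 4 held 8.73% against 6.08% and RA replicate 2 held 6.01% against 4.05%. RA replicates 6 and 7, outside these 4, held 7.29% and 6.95% of the members' squared residuals, more than RA replicate 2. Several libraries outside these 4 also held more of the candidates' spread than RA replicate 2, the highest being RA replicate 6 at 5.97%. A lone library held over 50% of a member's squared residuals for 17 members, and the median share of the most extreme library was 26.9%. Differences between runs within a feeding group made up 36.2% of the members' squared residuals and 35.7% of the candidates', where 5 of 18 degrees of freedom (27.8%) belong to runs. Without Control replicate 5 the shares were 26.3% and 24.2%, with 4 of 17 degrees of freedom (23.5%).

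Members did not vary independently. Clustering on the correlation of their residuals over the 21 libraries placed 140 of the 200 members in 6 blocks of 52, 37, 22, 16, 8 and 5 genes, numbered here by size. The other 60 members fell into clusters of fewer than 5 genes, 30 of them alone. The blocks were formed on these values and are described without a test.

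**Figure D2:**
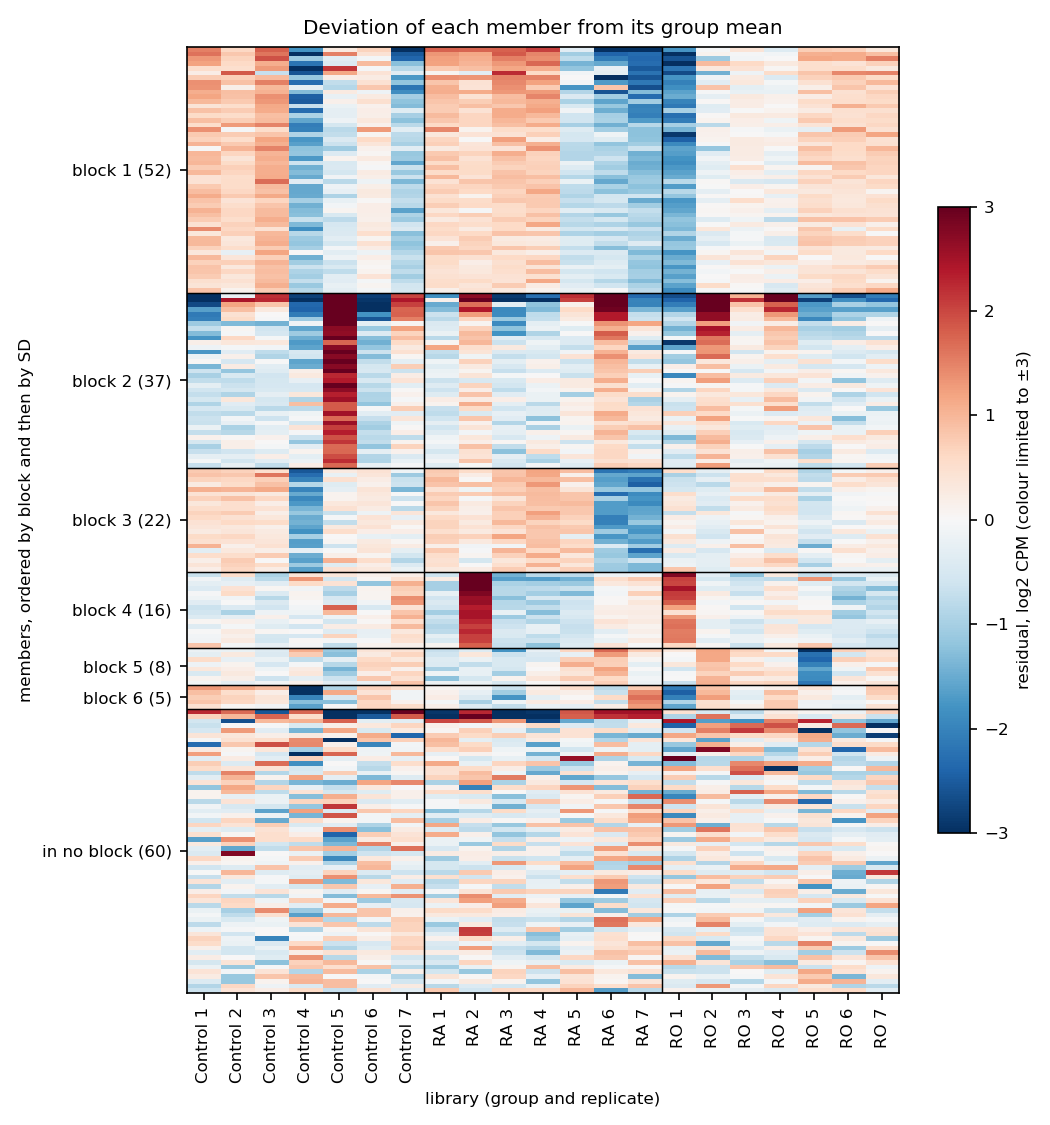
Residual of each member (rows, ordered by block and then by SD) in each of the 21 libraries (columns, by group and replicate), in log2 CPM relative to the group mean, red above and blue below. Block 2 is red in Control 5, block 4 in RA 2 and RO 1, block 3 is blue in Control 4, RA 6 and RA 7, and block 5 is blue in RO 5.

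Block 1, with 52 members, was low in the same 6 libraries across the 3 groups. Its mean residual was -1.41 in Control replicate 4, -1.07 in Control replicate 7, -0.62 in RA replicate 5, -0.99 in RA replicate 6, -1.39 in RA replicate 7 and -1.70 in RO replicate 1. In the last of these, 0 of the 52 members lay above the group mean and 47 lay at least 1 log2 unit below it. RA replicates 1, 3 and 4 had all 52 members above the group mean. Control replicate 3, at 1.04 on average, had the highest residual of the 21 libraries for 26 members. The median member stood at 11 CPM in RO replicate 1 and at 36 to 61 CPM in the other 6 RO libraries. All 52 members stayed in the list, and in the same cluster, without Control replicate 5.

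ENSBTAG00000003308, the member of block 1 with the second largest SD (1.74), measured 2.56 to 108 CPM in controls (median 59.9), 3.26 to 70.6 in RA (median 44.4) and 6.31 to 125 in RO (median 61.7). It fell into separate ranges: the 6 libraries named above lay between 2.56 and 9.22 CPM and the other 15 between 44.4 and 125 CPM. Each feeding group had libraries in both ranges. The member with the largest SD, ENSBTAG00000011500 (1.77), had its lowest values in RA replicates 6 and 7, at 0.652 and 1.41 CPM, and in Control replicate 7, at 2.65 CPM. In ENSBTAG00000016947 (SD 1.44) the same 6 libraries stood at 9.29 CPM or less and the other 15 at 16.9 CPM or more.

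Block 2, with 37 members, was high in Control replicate 5 above all. Its mean residual there was 2.73, and all 37 members lay at least 1 log2 unit above the control mean. The library had the highest residual of the 21 for 36 members. The median member measured 114 CPM in Control replicate 5 and 7.21 to 22.5 CPM in the other controls. RO replicate 2 (mean residual 1.33, 36 of 37 above the group mean) and RA replicate 6 (1.21, 37 of 37) were the next highest. These 3 libraries belong to 3 groups and to runs A, B and D. Without Control replicate 5, 9 of the 37 members remained among the 200, and the block split into 13 clusters, the largest of 17 genes.

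The 2 members with the largest SD of all belong to block 2 and varied among the other libraries too. ENSBTAG00000010889 (SD 2.98, and 2.74 without Control replicate 5) ranged from 0 to 313 CPM in controls (median 5.59), from 0 to 78.6 in RA (median 0.543) and from 0 to 51.1 in RO (median 0.516). ENSBTAG00000016138 (SD 2.89, and 2.86 without that library) ranged from 0.994 to 155 CPM in controls (median 90.6), from 0.267 to 97.3 in RA (median 10.9) and from 0.773 to 119 in RO (median 1.96). It was at 40.3 CPM or more in 10 libraries, namely Control replicates 2, 3, 5 and 7, RA replicates 2, 5 and 6 and RO replicates 2, 3 and 4. It was at 2.11 CPM or less in the other libraries except RA replicate 1, which lay between at 10.9 CPM. ENSBTAG00000012139 (SD 2.21) was at 126 CPM in Control replicate 5 and at 19.9 CPM or less elsewhere, with a count of 0 in 6 libraries.

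Block 3, with 22 members, was low in 3 of the 6 libraries that were low for block 1. Its mean residual was -1.55 in Control replicate 4, -1.46 in RA replicate 6 and -1.61 in RA replicate 7, and 0 of 22 members lay above the group mean in any of these. The other 3 differed from block 1: RA replicate 5 stood at 0.62, RO replicate 1 at -0.01 and Control replicate 7 at -0.32. ENSBTAG00000013182 (SD 1.06) measured 8.46 to 90.2 CPM in controls (median 69.8), 9.56 to 105 in RA (median 79) and 38.9 to 110 in RO (median 72.2). Its 3 low libraries, at 8.46, 9.56 and 10.6 CPM, lay clear of the other 18, which started at 38.9 CPM. ENSBTAG00000039091 (SD 0.983) was likewise at 5.89 CPM or less in those 3 libraries and at 15.7 CPM or more in the rest. All 22 members stayed in the list without Control replicate 5.

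Block 4, with 16 members, was high in RA replicate 2 and RO replicate 1. RA replicate 2 was the highest library for 16 of 16 members, with a mean residual of 2.59, and 14 of 16 lay at least 1 log2 unit up in RO replicate 1, with a mean residual of 1.68. The median member measured 115 CPM in RA replicate 2 and 44 CPM in RO replicate 1. It measured 8.63 to 19.5 CPM in the other RA libraries and 5.88 to 14.2 CPM in the other RO libraries, and no control exceeded 17.9 CPM. ENSBTAG00000016061 (SD 1.24) measured 2.95 to 9.06 CPM in controls (median 7.16), 3.51 to 157 in RA (median 6.51) and 2.95 to 54.4 in RO (median 5.63). RA replicate 2 and RO replicate 1 gave the highest values, and the other 19 libraries lay between 2.95 and 9.61 CPM. ENSBTAG00000016661 (SD 1.09) was at 124 and 33.9 CPM in these 2 libraries, and at 17.2 CPM or less elsewhere. The libraries come from different runs, A and B.

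Blocks 5 and 6 each turned on other libraries. All 8 members of block 5 were lowest in RO replicate 5, where the mean residual was -2.19 and the median member stood at 2.06 CPM, against 8.86 to 18.1 CPM in the other RO libraries. Its leading member ENSBTAG00000005103 (SD 1.12) measured 0.258 CPM there, from 1 count, and 7.18 to 17.6 CPM in the rest of RO. The medians of this gene were close, at 10.4 CPM in controls (range 5.13 to 25.4), 12 CPM in RA (3.78 to 48.4) and 10.9 CPM in RO. The 5 members of block 6 were low in Control replicate 4 (mean residual -2.32) and RO replicate 1 (-1.80) and high in RA replicate 7 (1.31). ENSBTAG00000018499 (SD 1.16) measured 1.28 CPM in Control replicate 4 and 11.8 to 55.4 CPM in the other controls (group median 36.5). In RO it measured 4.81 CPM in replicate 1 and 20.3 to 39 CPM in the rest (group median 24.3), and in RA it ranged from 23 to 69.4 CPM (median 42.3).

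**Figure D3:**
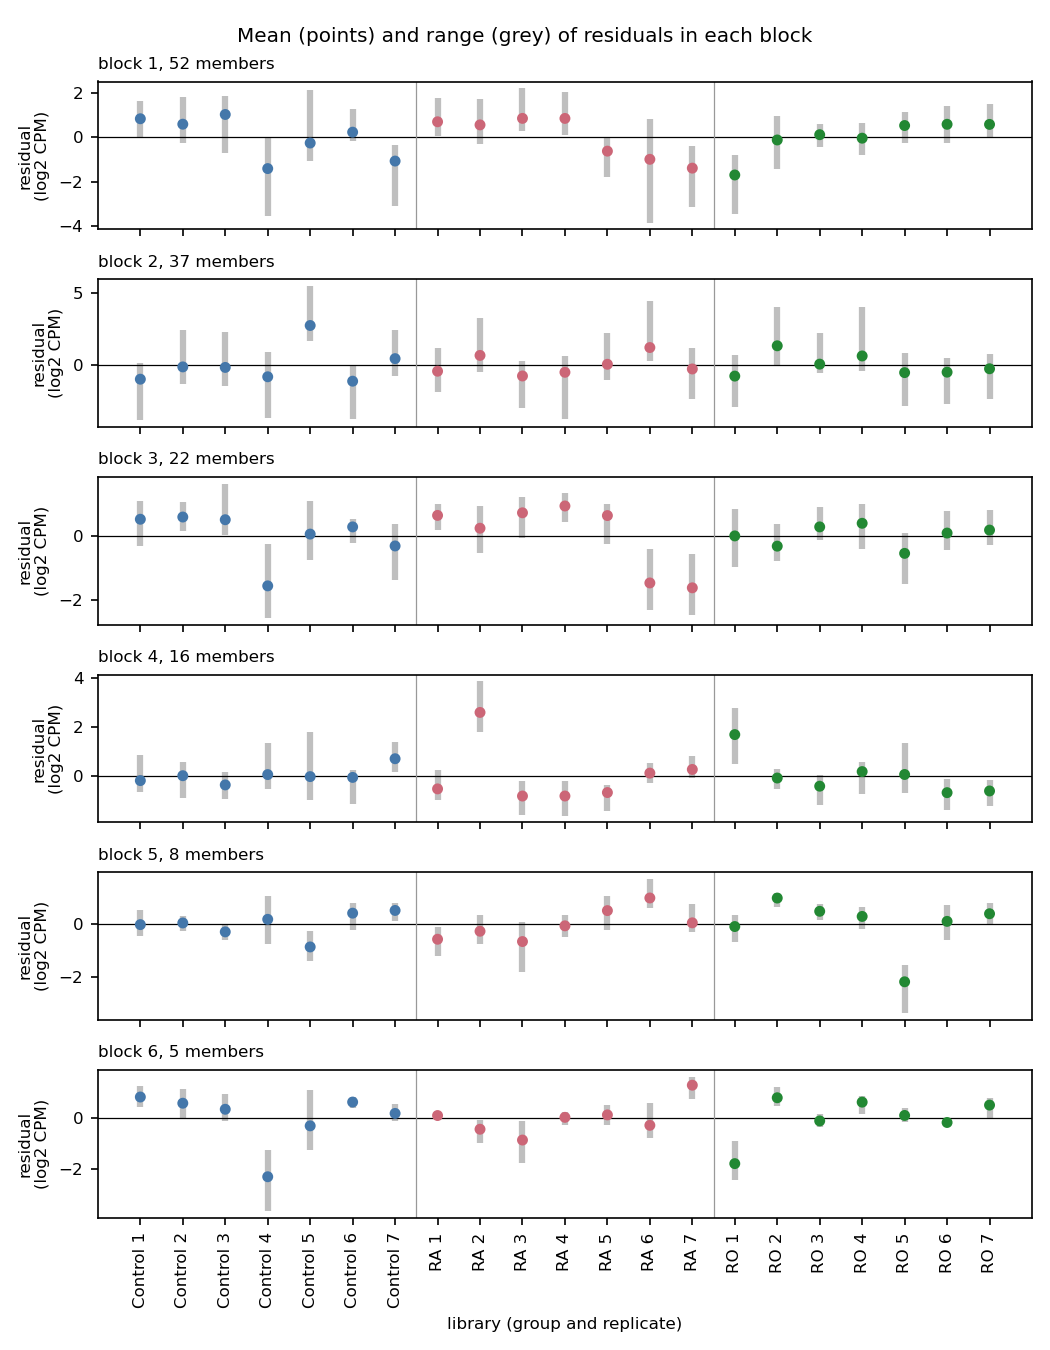
Mean residual of the members of each block (points, coloured by group) and the range over its members (grey bars), in log2 CPM relative to the group mean, for each of the 21 libraries. The means reach -1.70 in RO 1 for block 1, 2.73 in Control 5 for block 2, -1.61 in RA 7 for block 3, 2.59 in RA 2 for block 4, -2.19 in RO 5 for block 5 and -2.32 in Control 4 for block 6.

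The blocks extended beyond the 200 members. Among the 11013 other candidates, 499 had residuals that correlated with the mean of block 1 at 0.7 or more over the 21 libraries, and 37 at -0.7 or less. The corresponding counts were 261 and 230 for block 2, 208 and 97 for block 3, 45 and 3 for block 4, 183 and 10 for block 5 and 15 and 9 for block 6. Without Control replicate 5 the counts were 592 and 72 for block 1, 68 and 89 for block 2, 272 and 191 for block 3, 64 and 8 for block 4, 232 and 16 for block 5 and 23 and 12 for block 6. These correlations share libraries and scaling and are given as a description.

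Some members fell into separate ranges and others had a lone library far from the rest. For 52 members the largest step between neighbouring libraries was at least 1.5 log2 units, which held for 12 of the 11013 other candidates. The step set off a lone high library in 30 members, of which 25 had Control replicate 5 at the top and 4 had RA replicate 2. It set off a lone low library in 9 members, of which 4 had RO replicate 5. In 7 members it left at least 3 libraries on each side, and 0 of the other candidates showed such a step. A wide step by itself raises the SD that chose the members. These contrasts with the other candidates therefore follow in part from the rule.

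The widest step belonged to ENSBTAG00000037605, a member in no block (SD 2.25). Its step of 3.88 log2 units separated 6 libraries, at 0 to 0.543 CPM, from 15 libraries at 15 to 60 CPM, with medians of 18.6 CPM in controls, 28.1 in RA and 28.4 in RO. The low libraries were Control replicates 3, 5 and 6 and RA replicates 1, 3 and 4, while all 7 RO libraries were high, at 15 to 44.2 CPM. ENSBTAG00000038128 (SD 2.12) was low in 5 of the same 6 libraries, at 0 to 0.746 CPM, and at 6.61 to 65 CPM in the other 16, with medians of 10.9 CPM in controls, 17.3 in RA and 9.83 in RO. Control replicate 3, low for the former gene at 0.492 CPM, was high for the latter at 23.6 CPM. ENSBTAG00000034645 (SD 1.39) was at 12.4 to 42.7 CPM in 19 libraries, with a count of 0 in RO replicate 7 and 1.5 CPM in RO replicate 1.

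**Figure D4:**
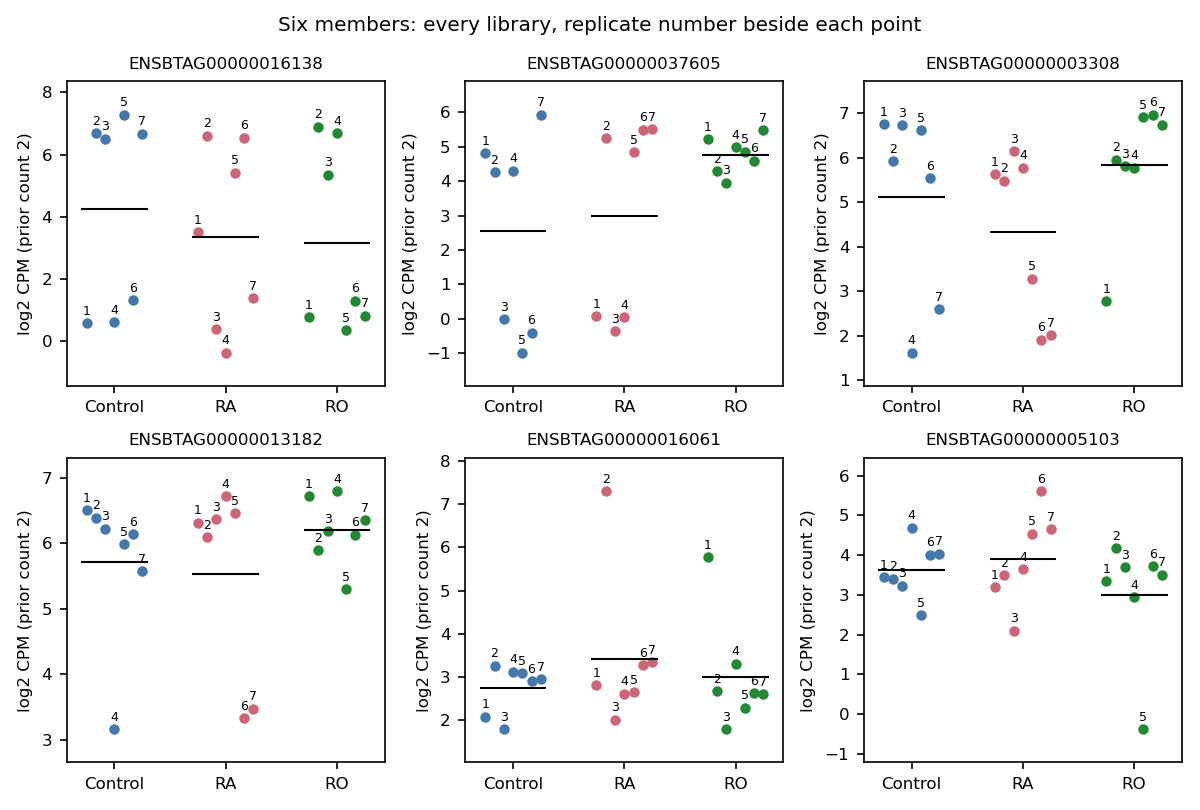
Log2 CPM (prior count 2) of 6 members in every library, by group, with the replicate number at each point and the group mean as a line. ENSBTAG00000037605, ENSBTAG00000003308 and ENSBTAG00000013182 fall into separate ranges with a step of 3.88, 2.21 and 1.83 log2 units, ENSBTAG00000016061 is high in RA 2 and RO 1 and ENSBTAG00000005103 is low in RO 5.

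The feeding groups were then compared. The rule did not use the difference of a restricted group from controls, but choice and comparison were not independent. The library values that set a member's spread also enter its group means and the error of the test. Members of a block vary together, so counts of members or of signs below are not counts of separate observations. Without Control replicate 5, 37 members fell under the SD at which the list ends. The quasi-likelihood test of edgeR called no member at an adjusted p under 0.05 in any of the 3 comparisons, nor any other gene (0% called of 13435). The members' fold changes were imprecise, with a median standard error of 0.414 for RA against control, against 0.125 for all genes tested. DESeq2 and limma-voom, the latter run with a quality weight for each library, also called 0 members when either restricted group was compared with controls. At an unadjusted p under 0.05, DESeq2 gave 20 members (10%) for RA, against 9.43% of all genes, and 16 (8%) for RO, against 6.45%. Limma-voom gave 9 members (4.5%) for RA, against 11.6% of all genes, and 3 (1.5%) for RO, against 5.08%. In these comparisons with controls the members' share thus lay below the background with limma-voom and above it with edgeR on all 21 libraries. No fit separated the library weights from the other differences between the tools, and the cause was not tested.

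In RA against control, 25 of the 200 members (12.5%) had an unadjusted p under 0.05, against 9.26% of all genes tested. Of these, 8 members were higher in RA (background 4.94%) and 17 lower (background 4.32%). The median absolute log2 fold change was 0.353 in members and 0.116 in all genes, and 132 of 200 members had a negative value. Block 2 supplied 15 of the 17 lower members, and without Control replicate 5 this count was 0, its median log2 fold change going from -0.97 to -0.05. The count was 7 without RA replicate 1, 9 without RA replicate 3 or 4, and 23 without RA replicate 6 or Control replicate 6. Block 4 supplied 6 of the 8 higher members, with a median log2 fold change of 0.93, and without RA replicate 2 the count was 0 and the median 0.05. It was 3 without Control replicate 1, 3 or 6, 10 without RA replicate 3 and 1 with run as a covariate. No member had RA and control libraries that did not overlap (background 0.067%).

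In RO against control, 21 members (10.5%) had an unadjusted p under 0.05, against 6.43% of all genes. Of these, 2 were higher in RO (background 2.2%) and 19 lower (background 4.23%). Of the 19 lower members, 17 belonged to block 2, and all 37 members of that block had a negative value. Without Control replicate 5 the count of lower members in block 2 was 0 and its median log2 fold change -0.14. The count was 10 without RO replicate 5 and 6 with run as a covariate. Over all members without that library, 5 (2.5%) had such a p for RO and 10 (5%) for RA, where the backgrounds were 4.33% and 7.39%. No member separated the RO from the control libraries (background 0.104%).

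The comparison of RA with RO was in part used by the rule, which set aside genes whose libraries did not overlap (background 0.662%). A share of members below the background is therefore in part built into the rule. The counts and p-values of this comparison are given as a description and carry no test. An unadjusted p under 0.05 was seen for 9 members (4.5%) against 20.7% of all genes, with 5 higher in RA (background 8.72%) and 4 lower (background 12%). DESeq2 called 2 of the 196 members to which it gave an adjusted p (1.02%), against 4.16% of all genes with one, and 4 members had none. The called members were ENSBTAG00000010082 and ENSBTAG00000020837, whose DESeq2 adjusted p was 0.0437 and 0.0277. Their edgeR adjusted p was 0.449 and 0.51. Both were lower in RA, with DESeq2 log2 fold changes of -0.672 and -0.661. The highest value of each lay in a control library, outside this comparison. It was 224 CPM in Control replicate 2 for the former and 160 CPM in Control replicate 5 for the latter. Whether these libraries account for the difference between the tools was not tested. Limma-voom called 0 of the 200. At an unadjusted p under 0.05 it gave 11 members (5.5%) against 20.3% of all genes, and DESeq2 gave 14 (7%) against 21.2%. Blocks 1 and 4 had opposite signs here. Values were negative for 51 of 52 members of block 1 (median log2 fold change -0.41) and positive for 16 of 16 members of block 4 (0.77). Members of a block vary together, so these are not separate observations. The mean residuals of blocks 1 and 4 shared a sign in 5 of 21 libraries. The median of block 4 was -0.14 without RA replicate 2 and 1.62 with run as a covariate. That of block 1 was 0.15 with run as a covariate, and between -0.59 and -0.29 when any library was left out. With that covariate, 5 members (2.5%) and 2.17% of all genes had an unadjusted p under 0.05.

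**Figure D5:**
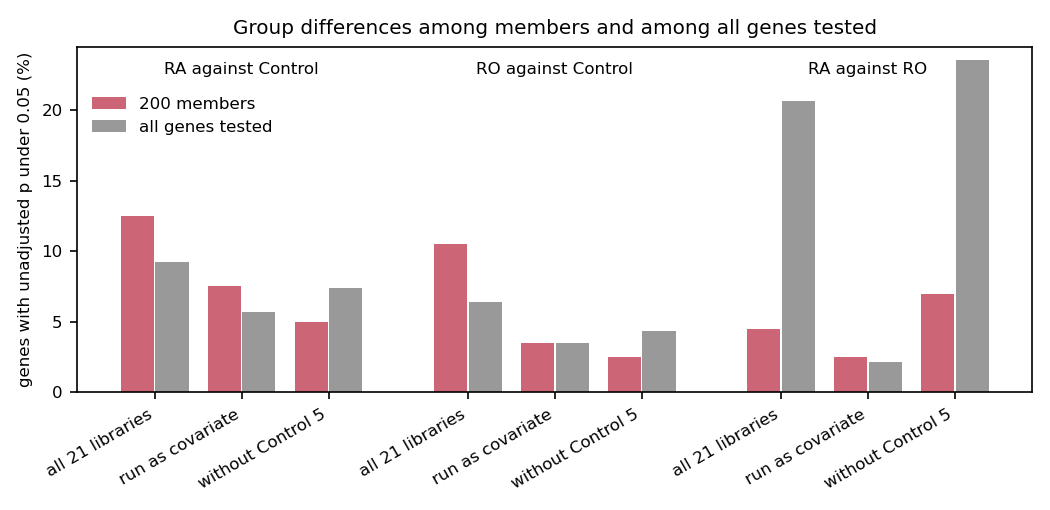
Percentage of the 200 members (red) and of all genes tested (grey) with an unadjusted p under 0.05 in edgeR's test, for each comparison of 2 groups, with all 21 libraries, with run as a covariate and without Control replicate 5. For RA against control the members go from 12.5% to 7.5% and 5%, and for RO against control from 10.5% to 3.5% and 2.5%.

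Among the members with the smallest p in each direction, 3 of the 4 from the comparisons with controls rested largely on a lone library. For RA against control, ENSBTAG00000010082 measured 15.6 to 224 CPM in controls (median 23.6), 9 to 21.5 in RA (median 17.8) and 16 to 38.9 in RO (median 26.2). The highest value was Control replicate 2, and the groups overlapped. Its log2 fold change was -1.69 (SE 0.49, edgeR adjusted p = 0.532), and -0.56 without Control replicate 2. In the other direction ENSBTAG00000030936, of block 4, measured 2.82 to 10.1 CPM in controls (median 6.46), 5.05 to 96.5 in RA (median 11.4) and 3.92 to 38.4 in RO (median 6.96). Its log2 fold change was 1.81 (SE 0.62, edgeR adjusted p = 0.532), and 0.73 without RA replicate 2.

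For RO against control, ENSBTAG00000015106, of block 2, measured 10.8 to 222 CPM in controls (median 31.3), 5.39 to 41 in RA (median 21.8) and 3.9 to 32.1 in RO (median 14.7). Control replicate 5 gave the highest value, and without it the log2 fold change was -0.81, against -1.84 with all libraries (SE 0.58, edgeR adjusted p = 0.749). ENSBTAG00000039035, in no block, measured 7.14 to 34.4 CPM in controls (median 17.9), 20.6 to 53.5 in RA (median 25.2) and 14.9 to 76.6 in RO (median 43.6), so the groups overlapped. Its log2 fold change was 1.07 (SE 0.35, edgeR adjusted p = 0.749), between 0.85 and 1.27 when any library was left out, and 1.14 with run as a covariate.

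For RA against RO, ENSBTAG00000011515 measured 6.78 to 39 CPM in RA (median 13.1) and 4.9 to 11.6 in RO (median 7.07), with controls at 3.08 to 22 (median 7.69). The log2 fold change was 1.16 (SE 0.40, edgeR adjusted p = 0.126). ENSBTAG00000014194, of block 1, measured 10.6 to 33.7 CPM in RA (median 23.9) and 17.4 to 74.2 in RO (median 36.9). Controls ranged from 13.8 to 64.2 CPM (median 33.1) for this gene, and the log2 fold change was -1.11 (SE 0.39, edgeR adjusted p = 0.127). Leaving out any library kept these values between 0.80 and 1.30 for the former and between -1.27 and -0.95 for the latter. Both genes kept their sign with run as a covariate, a fit in which the median of block 1 was 0.15. RA and RO met only in run A, so run and group can hardly be told apart here. The rule also used this comparison in part, so the p-values of both genes are a description.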

How the data were processed

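The authors deposited raw read counts per gene for each of 21 hypothalamus libraries, with no normalization. CASAVA 1.4, Bowtie, SAMtools and HTSeq appear in the submitters' processing notes. Genome build, annotation, strand and the role of each tool were not given in the sources used here. Members and lists were chosen with earlier results of these data known. Genes were kept by edgeR's filterByExpr (13435 of 22984, holding 99.75% of counts), scaled by TMM and written as log2 CPM with a prior count of 2. Groups were compared with edgeR 4.0.16 (R 4.3.3), by the robust quasi-likelihood test on 3 group means over all 21 libraries, with Benjamini-Hochberg adjustment over 13435 genes. Standard errors are the absolute log2 fold change over the root of the F statistic. Members were clustered by average linkage on 1 minus the correlation of residuals, at a height of 0.4. DESeq2 1.42.0 and limma-voom 3.58.1, with a quality weight for each library, were alternatives.

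The test and the ranking were also run on simulated data, in which genes varied independently, without blocks or outlying libraries. Those runs check the steps only and do not bear on the members or blocks described here. Named members are the 15 with the largest SD, the 4 leading each block (not all are printed), the smallest p in each direction of each comparison, and the 2 genes on either side of the threshold. At most 15 are given with the range and median of each group. ENSBTAG00000020837 was named after its value was seen. Gene lists fixed by symbol were not used, since no identifier matched. Samples were not treated as paired by replicate number. Residuals of same-numbered libraries correlated at -0.0448 on average over 21 pairs, with 4 above 0.1. This check cannot exclude a pairing of small effect. No 2 libraries agreed within sampling noise (chi-square per degree of freedom at least 2.19).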

Additional observations from a re-analysis of the deposited data

Results flagged for a closer look

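Library values of the 39 members chosen for naming, and 4 measures per library, were looked at within each group of 7. Dixon's 95% limit for the gap between the highest or lowest library and the nearest other was passed in 23 of 129 sets. Chance picks out about 1 in 20 independent sets. The members had been chosen for wide spread, and those of a block share their extreme libraries. The count of sets is therefore a description and carries no test. Gene values below are in log2 CPM.

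RO replicate 1 stood apart most often. It was low for ENSBTAG00000003308 at 2.77 (next library 5.78), ENSBTAG00000016947 at 1.38 (5.16) and ENSBTAG00000002849 at 1.81 (4.05), all of block 1. It was also low for ENSBTAG00000018499 at 2.41 (4.38) and ENSBTAG00000030973 at 0.15 (2.30), both of block 6. It was high for ENSBTAG00000016061 at 5.78 (3.31), ENSBTAG00000016661 at 5.11 (3.22) and ENSBTAG00000030936 at 5.28 (3.45), of block 4, and for ENSBTAG00000004361 at 4.47 (3.78). As a library it was the most extreme for 34 members, against 12 for the next RO library, and held 8.99% of the members' squared residuals, against 4.66%.

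RA replicate 2 was high for ENSBTAG00000016061 at 7.30 (next 3.34), ENSBTAG00000016661 at 6.96 (4.08) and ENSBTAG00000007881 at 7.17 (4.1), of block 4. RO replicate 5 was low for 3 members of block 5, ENSBTAG00000005103 at -0.38 from 1 count (next 2.94), ENSBTAG00000005306 at 2.63 (4.80) and ENSBTAG00000019676 at 1.63 (3.63). Control replicate 4 was low for ENSBTAG00000013182 at 3.16 (5.57), ENSBTAG00000004361 at 1.94 (3.37) and ENSBTAG00000030973 at 0.0305, from 2 counts (2.99). Control replicate 2 was high for ENSBTAG00000010082 at 7.81 (5.04). Control replicate 5 was high for ENSBTAG00000008182 at 8.23 (6.72), and correlated at 0.927 on average with the rest of its group (next control 0.956).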

How the results depend on the processing

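The list of 200 kept 198 members under RLE scaling, 193 to 196 with other prior counts, 146 by median absolute residual, 172 by SD above a trend on level, 180 with run subtracted and 170 to 195 when 1 library was left out, with the lowest value without Control replicate 5. It kept 144 without Control replicates 4 and 5, RA replicate 2 and RO replicate 1, a setting chosen after seeing the data, as were those on blocks, the steps between libraries and the ranking in 1 group. It kept 74 with a minimum mean of 1 CPM, 102 with 20 CPM (102 members reach that level) and 126 on a variance-stabilized scale, where the members' median SD was 0.378. That median was 0.765 to 0.806 leaving out 1 library. Blocks held 131 to 157 members under other cut heights, complete linkage or leaving out 1 library.

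No member was called in any setting except with DESeq2 between RA and RO (2 members, against 4.16% of all genes). This includes an adjusted p under 0.1, which 2.23% of all genes passed between RA and RO, and each of the 21 fits leaving out 1 library (0 to 0 members in each comparison). In that comparison leaving out RO replicate 4 gave calls for 2.96% of all genes, leaving out Control replicate 7 for 0.156%, leaving out RA replicate 3 for 0.126% and leaving out RO replicate 7 for 1 gene.

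Members with an unadjusted p under 0.05 numbered 25 (RA) and 21 (RO) in the comparisons with controls, and 9 between RA and RO. In the same order they numbered 15, 7 and 5 with run as a covariate, against 5.72%, 3.49% and 2.17% of all genes. The replicate block gave 7, 6 and 15, against 8.14%, 4.88% and 18.6%, with 0 members called, and 3 of 21 libraries correlated best with their own number. Limma-voom with quality weights gave 9 and 3 in the comparisons with controls, against 11.6% and 5.08%. DESeq2 gave 14 between RA and RO, against 21.2%. Leaving out 1 library gave 10 (without Control replicate 5, background 7.39%) to 35 (without RA replicate 6, 9.41%) for RA, and 5 (without Control replicate 5, 4.33%) to 30 (without Control replicate 1, 8.92%) for RO. Between RA and RO it gave 5 (without RA replicate 7, 17.5%) to 29 (without RO replicate 1, 21.6%). Counts also moved by over 1.5 times without other libraries: to 12 for RO without RO replicate 5 (5.2%), and between RA and RO to 17 without RA replicate 3 (22.9%) or RO replicate 2 (21.5%) and to 14 without Control replicate 5 (23.6%). The causes of these changes were not tested. Depth limits low values most, since a count of 3 stands for 0.652 to 0.901 CPM.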
